A study of Homo sapiens with 16 samples.

Results

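The 8 genes described here encode ATP-binding cassette (ABC) exporters that carry drugs out of cells: ABCB1, ABCC1, ABCC2, ABCC3, ABCC4, ABCC5, ABCC10 and ABCG2. They were chosen by gene name among the 58735 genes counted, as exporters linked to the efflux of drugs, taxanes included. Earlier results of these data were known when they were chosen. The series holds poly-A RNA-seq of 16 bulk samples from a pair of human breast cancer lines labelled as triple-negative, MDA-MB-231 and SUM159PT, all with the genotype label WT. In each line 4 samples were transfected with sgYES1, a guide RNA against the Src-family kinase gene YES1, and 4 with sgNTS, a non-targeting guide, and every sample was collected 48 h after lipofection. The submitters describe the replicates as technical, so p-values measure only the spread between these samples. Which protein works with these guides is not stated in the sources, each line had its own culture medium, and no drug is named for any sample, so the values describe exporter mRNA without a labelled taxane exposure.

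ABC exporters use ATP to move their substrates across a membrane. ABCB1 (P-glycoprotein), ABCC2 and ABCC10 are known to transport taxanes, whereas ABCC1, ABCC3, ABCC4 and ABCC5 are better known for organic anions such as glutathione and glucuronide conjugates, bile salts and cyclic nucleotides. ABCG2, the breast cancer resistance protein, is a smaller transporter that works as an assembly of several copies and carries agents such as mitoxantrone and topotecan. Transport by these proteins depends on their amount and place in the membrane as well as on mRNA, and only mRNA was measured here.

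The members lie on 8 different chromosomes in hg38 and all are protein-coding, so no pair of them is a neighbouring cluster. ABCB1 spans chr7:87503633-87713323, ABCC2 chr10:99782640-99852594, ABCC3 chr17:50634777-50692252 and ABCG2 chr4:88090264-88231322. ABCC1 spans chr16:15949577-16143074, ABCC4 chr13:95019829-95301475, ABCC5 chr3:183919934-184018015 and ABCC10 chr6:43427366-43450430. ABCC10 shares 79 exon bases (0.977% of its exon length) with DLK2 on the opposite strand, and no other member shares exon bases with another gene. Of all 50-base words in the longest protein-coding transcript of ABCB1, 2.52% also occur in ABCB4, its close paralog. Reads that lie wholly within those stretches cannot be assigned with certainty.

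Promoter windows of 250 bases before an annotated start are shown for the exporter at the floor of the measurement (ABCB1) and for 3 that passed the test in at least 1 line (ABCC2, ABCC5 and ABCG2), to set their base composition side by side. They are RefSeq sequences of GRCh38.p14, in which 6 of the 8 members matched. ABCC1 and ABCC3 had no entry, so no window could be shown for them. For a gene with several starts the window leading into the most GENCODE 29 transcripts was taken. Windows of ABCG2 tied at 2 transcripts, and the tied window with the highest coordinate was taken. Capitals mark matches on either strand to GGGCGG (the GC box) and CCAAT (the CCAAT box). No window shown held TGACNNNGC, the core of the antioxidant response element. Among windows not printed, that of ABCC4 and 1 of those of ABCC10 held 1 match each.
ABCB1, chr7:87600885-87601134, minus strand: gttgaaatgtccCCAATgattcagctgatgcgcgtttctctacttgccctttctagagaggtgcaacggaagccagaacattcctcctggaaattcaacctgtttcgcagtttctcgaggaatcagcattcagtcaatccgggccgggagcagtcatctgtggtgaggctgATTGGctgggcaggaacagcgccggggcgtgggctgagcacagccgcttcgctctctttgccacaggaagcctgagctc
ABCC2, chr10:99782390-99782639, plus strand: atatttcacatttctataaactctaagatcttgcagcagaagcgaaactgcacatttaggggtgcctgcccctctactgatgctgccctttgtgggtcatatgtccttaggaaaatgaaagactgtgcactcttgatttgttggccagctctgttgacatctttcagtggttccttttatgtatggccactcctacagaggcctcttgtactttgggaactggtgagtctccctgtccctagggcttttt
ABCC5, chr3:184017885-184018134, minus strand: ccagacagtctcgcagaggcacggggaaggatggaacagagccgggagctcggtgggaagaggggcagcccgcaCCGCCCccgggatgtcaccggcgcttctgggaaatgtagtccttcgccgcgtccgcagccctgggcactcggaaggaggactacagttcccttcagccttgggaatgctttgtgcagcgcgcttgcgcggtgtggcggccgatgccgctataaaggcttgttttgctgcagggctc
ABCG2, chr4:88158910-88159159, minus strand: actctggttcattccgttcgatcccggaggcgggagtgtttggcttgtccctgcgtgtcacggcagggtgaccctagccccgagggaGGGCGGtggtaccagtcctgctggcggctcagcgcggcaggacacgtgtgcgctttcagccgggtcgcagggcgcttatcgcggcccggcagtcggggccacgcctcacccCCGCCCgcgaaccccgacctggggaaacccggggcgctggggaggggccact
The ABCC2 window was 45.6% G or C with 1 CpG, and 6.06% of the 35116 RefSeq promoters had fewer CpGs. The ABCG2 window was 71.2% G or C with 27 CpGs and 2 GC boxes, and the ABCC5 window 64.8% with 21 CpGs and 1 GC box. The ABCG2 windows tied with it had 29 and 32 CpGs, and the latter held no GC box. The ABCB1 window was 55.6% G or C with 12 CpGs and 2 CCAAT boxes. Among all 35116 promoters of the same length, 42.6% held a GC box, 32% a CCAAT box and 10.9% the TGACNNNGC core. No match marked above overlapped another, and a match or its lack describes only these windows.

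In units of 1000000 counts, library depth was 17.2 to 25.1 (MDA-MB-231) or 14.4 to 20.9 (SUM159PT). YES1, the targeted gene, averaged 42.6 ± 1.09 CPM (counts per 1000000 counts of the library) with sgYES1 and 108 ± 3.07 CPM with sgNTS in MDA-MB-231, and 39.6 ± 0.753 against 94.1 ± 3.20 CPM in SUM159PT (SD, n = 4 each; log2 fold change -1.34 and -1.24, edgeR adjusted p = 2.76e-11 and 1.65e-13). ESR1 stayed at or below 0.428 CPM and PGR was at 0 in all 16 libraries, while ERBB2 mRNA averaged 96.1 to 109 CPM in the 4 groups. The luminal markers were mixed, with KRT19 averaging 235 to 286 CPM in MDA-MB-231 and 0 in SUM159PT. FOXA1 went the other way, averaging 0.171 to 0.272 CPM in MDA-MB-231 and 3.36 to 5.54 CPM in SUM159PT. GATA3 was present in both, averaging 17.3 to 18.6 CPM in MDA-MB-231 and 8.83 to 10.8 CPM in SUM159PT. Summed over 8 leukocyte and endothelial markers, levels were 2.21 to 4.13 CPM with sgYES1 and 1.48 to 2.88 CPM with sgNTS in MDA-MB-231, and 1.21 to 3.00 against 0.847 to 1.58 CPM in SUM159PT, with CD3E at 0 in every library. Most of the sum was the endothelial marker PECAM1, at means of 2.38 CPM with sgYES1 and 1.39 CPM with sgNTS in MDA-MB-231, and 0.873 to 2.02 CPM with sgYES1 and 0.521 to 1.14 CPM with sgNTS over the libraries of SUM159PT. The leukocyte marker LYZ went the other way in MDA-MB-231, at 0.0390 to 0.168 CPM with sgYES1 and 0.295 to 0.622 CPM with sgNTS, and was at 0 in SUM159PT. Their part in the results was not tested. MDA-MB-231 sgNTS replicate 4 stood apart from its group (chi-square per degree of freedom up to 26.2 against replicate 1, with a lowest value of 2.22 among all 24 replicate pairs), and leaving it out kept every exporter call of the 3 comparisons that used it. Without it, the exporters not called in MDA-MB-231 were at 0.07 (ABCC1), -0.12 (ABCC4), 0.09 (ABCC10) and -0.17 (ABCG2) on the log2 scale, with edgeR adjusted p = 0.273, 0.129, 0.284 and 0.122.

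The guide against YES1 came with changes in 4 exporter genes, and for 3 of them the change differed between the lines. In MDA-MB-231, ABCC2, ABCC3 and ABCC5 rose and no exporter fell. In SUM159PT, ABCC2 and ABCG2 rose and ABCC3 fell, so ABCC3 passed the test in opposite directions. ABCC1, ABCC4 and ABCC10 did not pass the test in either line, and ABCB1 was at or near 0 counts throughout. In MDA-MB-231 the members called were 3 of 7 tested, against 42.8% of all 15427 genes tested (20.8% higher, 22.1% lower). In SUM159PT they were also 3 of 7, against 39.4% of 14479 genes (19.6% higher, 19.7% lower), so both counts lie near the background of their comparison. Calls are adjusted p-values under 0.05 from edgeR's quasi-likelihood F-test, adjusted over all genes tested by Benjamini-Hochberg, and over the 7 members they had a median log2 fold change of 0.10 (MDA-MB-231) and 0.08 (SUM159PT), beside 0.01 and -0.01 over all genes tested. Libraries of the 2 guides did not overlap for 4 of 7 members in MDA-MB-231 and 3 of 7 in SUM159PT, beside 39.2% and 35.0% of all genes tested.

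**Figure D1:**
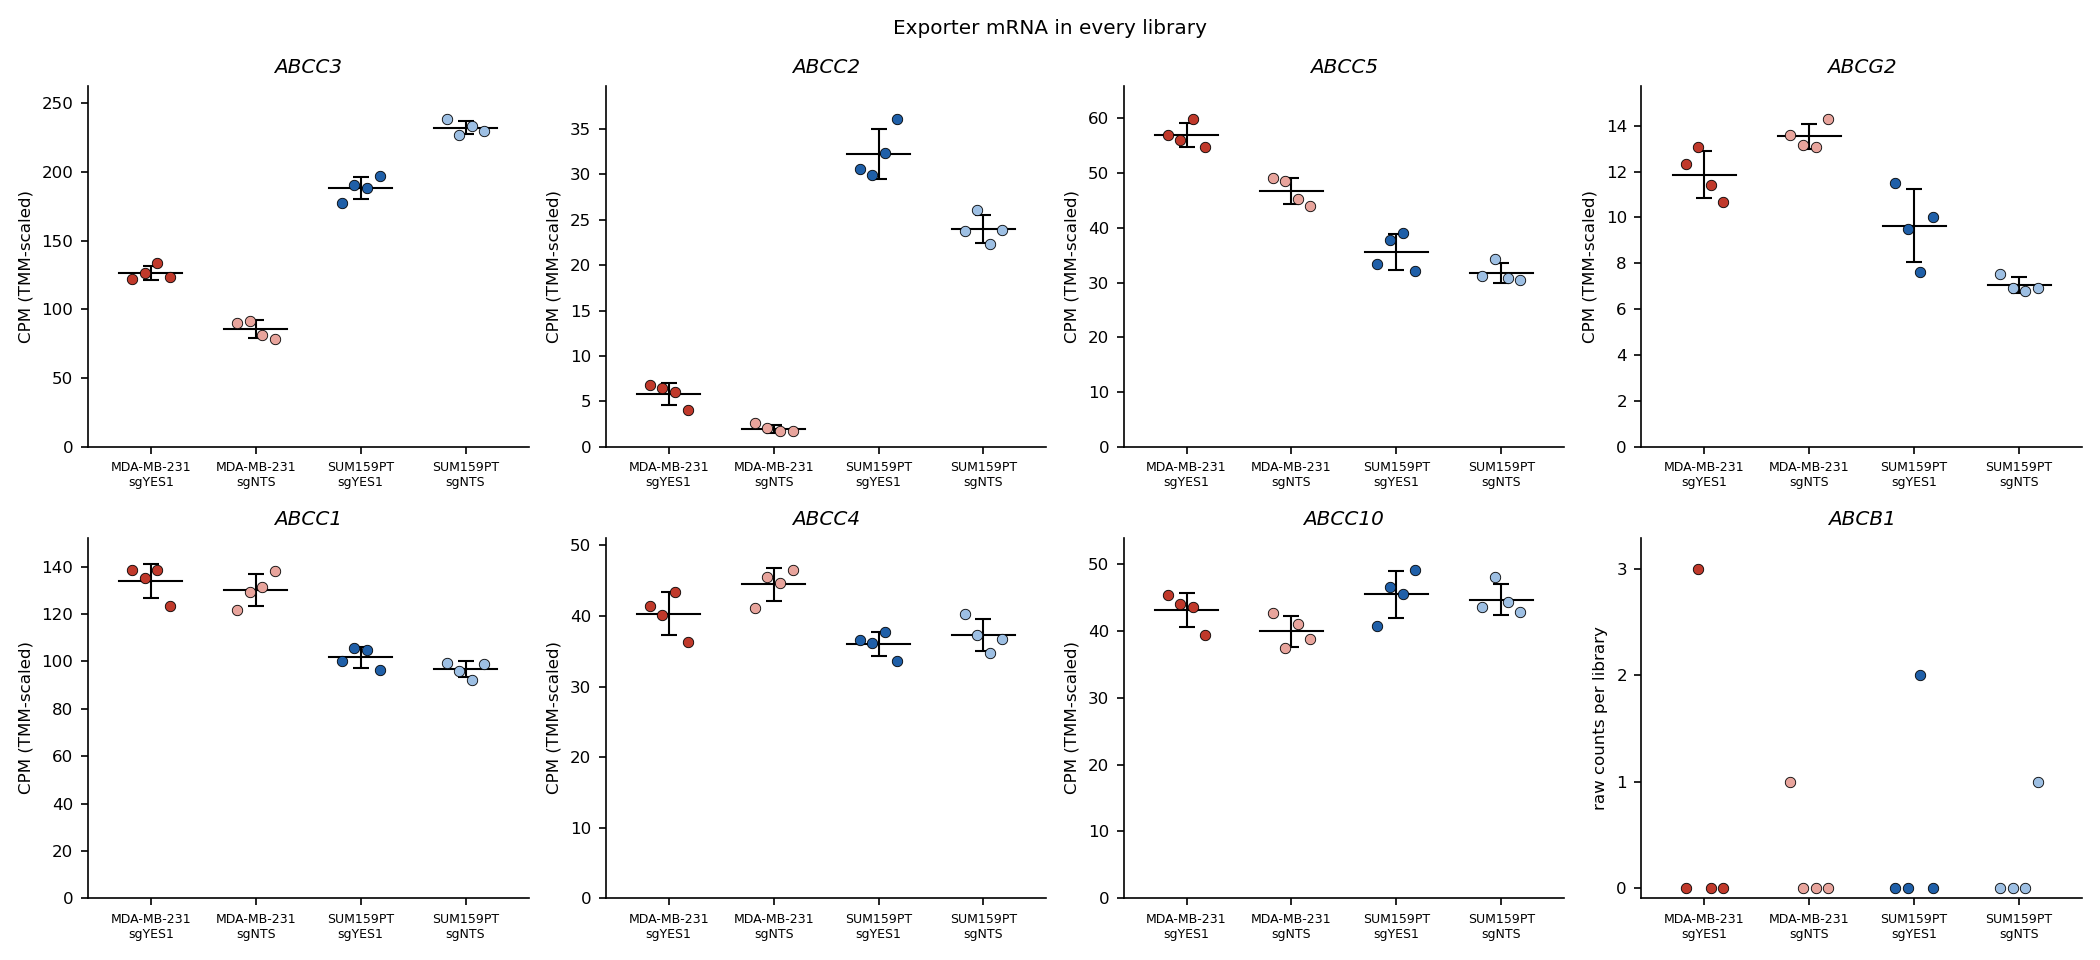
Level of each exporter in every library: CPM scaled by TMM on the vertical axis (raw counts for ABCB1), with 4 points per group in replicate order, the mean as a line and the SD as a bar. ABCC3 sits higher with sgYES1 in MDA-MB-231 and lower in SUM159PT, ABCC2 is higher in both lines, and ABCB1 has at most 3 counts in any library.

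ABCB1, the best known taxane exporter, was all but unmeasured. It had 0, 3, 0 and 0 counts in the MDA-MB-231 sgYES1 libraries, against 1, 0, 0 and 0 with sgNTS. SUM159PT gave 0, 0, 2 and 0 counts with sgYES1, against 0, 0, 0 and 1 with sgNTS. Summed over a group these were 3, 1, 2 and 1 counts, in total depths, in units of 1000000 counts, of 79.9 (MDA-MB-231 sgYES1), 85.1 (MDA-MB-231 sgNTS), 72.8 (SUM159PT sgYES1) and 67.6 (SUM159PT sgNTS). The exact Poisson 95% upper limits were 0.110 CPM (MDA-MB-231 sgYES1), 0.0655 CPM (MDA-MB-231 sgNTS), 0.0992 CPM (SUM159PT sgYES1) and 0.0824 CPM (SUM159PT sgNTS), which cover counting error only. ABCB1 failed the filter on low counts in every comparison and was not tested, so a change of ABCB1 below these limits was not detectable at this depth.

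ABCC2, which pumps conjugates and taxanes across the apical membrane of polarized cells, had the largest fold change of the 7 exporters tested in MDA-MB-231. It had 6.83, 6.44, 6.00 and 4.09 CPM in the sgYES1 libraries, against 2.62, 2.05, 1.70 and 1.69 CPM with sgNTS. These came from 122, 113, 125 and 105 counts with sgYES1 and 64, 39, 30 and 40 counts with sgNTS. All 4 sgYES1 libraries lay above all 4 sgNTS libraries, with sgYES1 replicate 4 the lowest of its group. The log2 fold change was 1.50 (SE 0.19, 95% interval 1.10 to 1.90, edgeR adjusted p = 1.96e-05), a 2.83-fold higher level, and 1.41 without sgNTS replicate 4. A call of at least 2-fold higher was given to 3.24% of all genes tested and to 5.58% of the 4105 genes at 1 to 10 CPM, where ABCC2 lies. In bulk RNA, a change in how many cells carry a transcript and a change in its amount per cell cannot be told apart.

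SUM159PT carried more ABCC2 than MDA-MB-231 under either guide. Its libraries had 30.5, 29.9, 32.3 and 36.1 CPM with sgYES1, against 23.8, 26.0, 22.3 and 23.8 CPM with sgNTS. The groups did not overlap, and the log2 fold change was 0.43 (SE 0.07, 95% interval 0.28 to 0.59, edgeR adjusted p = 7.59e-05), or 1.35-fold. Subtracting the MDA-MB-231 guide effect from the SUM159PT one gave -1.07 on the log2 scale (SE 0.19, 95% interval -1.46 to -0.67, edgeR adjusted p = 0.000202), so the rise was larger in MDA-MB-231, the line with the lower level. In that test of all 16 libraries, 3 of 7 members passed, 1 higher (ABCG2) and 2 lower (ABCC2 and ABCC3), against 24.5% of 16640 genes tested (12.7% higher, 11.9% lower). For ABCC2, 785 of these genes had a smaller p. Without MDA-MB-231 sgNTS replicate 4, the differences were -0.94 for ABCC2, -0.80 for ABCC3 and 0.66 for ABCG2 (edgeR adjusted p = 0.000738, 4.71e-10 and 0.00169), and those not called were 0.03 (ABCC1), 0.10 (ABCC4), -0.06 (ABCC5) and -0.03 (ABCC10).

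ABCC3, which exports glucuronides and bile salts at the basolateral membrane, moved in opposite directions in the lines. In MDA-MB-231 it had 122, 127, 134 and 124 CPM in the sgYES1 libraries, against 90.4, 91.6, 81.5 and 78.3 CPM with sgNTS. Every sgYES1 library exceeded every sgNTS library. The log2 fold change was 0.57 (SE 0.05, 95% interval 0.46 to 0.68, edgeR adjusted p = 1.02e-06), a 1.48-fold higher level, and 0.52 without sgNTS replicate 4. SUM159PT gave 178, 191, 188 and 197 CPM with sgYES1, against 239, 227, 234 and 230 CPM with sgNTS. Here every sgYES1 library lay below every sgNTS library, with a log2 fold change of -0.29 (SE 0.04, 95% interval -0.38 to -0.21, edgeR adjusted p = 9.42e-06), a level 1.23-fold lower with sgYES1.

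The opposite movement of ABCC3 gave the smallest p among the members in the test of the difference between lines. The SUM159PT effect minus the MDA-MB-231 effect was -0.87 (SE 0.07, 95% interval -1.01 to -0.73, edgeR adjusted p = 1.45e-09), and 22 of the 16640 genes tested had a smaller p. As group means, ABCC3 stood at 127 ± 5.03 CPM with sgYES1 and 85.4 ± 6.55 CPM with sgNTS in MDA-MB-231, and at 188 ± 8.21 against 232 ± 5.01 CPM in SUM159PT (SD, n = 4 each). SUM159PT thus remained the line with more ABCC3 under both guides.

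ABCC5 exports cyclic nucleotides and nucleotide analogues. In MDA-MB-231 it had 57.0, 55.9, 59.9 and 54.7 CPM in the sgYES1 libraries, against 49.1, 48.5, 45.3 and 44.0 CPM with sgNTS. The groups did not overlap, and ABCC5 rose 1.21-fold (log2 fold change 0.28, SE 0.05, edgeR adjusted p = 0.000384; 0.25 without sgNTS replicate 4). SUM159PT had 33.4, 37.8, 39.0 and 32.1 CPM with sgYES1, against 31.1, 34.4, 30.7 and 30.5 CPM with sgNTS. There the groups overlapped, with sgNTS replicate 2 above 2 sgYES1 libraries, and the log2 fold change of 0.17 (95% interval 0.02 to 0.32) did not pass (edgeR adjusted p = 0.0625). It did pass when 1 library was left out, at adjusted p = 0.0247 without sgNTS replicate 2, 0.0442 without sgYES1 replicate 1 and 0.0168 without sgYES1 replicate 4. The difference between lines was -0.12 (95% interval -0.30 to 0.06, edgeR adjusted p = 0.342), so a line-specific ABCC5 change was not shown.

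ABCG2 was low in both lines. In SUM159PT it had 11.5, 9.47, 7.62 and 10.0 CPM in the sgYES1 libraries, against 7.55, 6.92, 6.77 and 6.93 CPM with sgNTS. The groups did not overlap, although sgYES1 replicate 3 lay just above sgNTS replicate 1. ABCG2 rose 1.38-fold there, with a log2 fold change of 0.47 (SE 0.12, 95% interval 0.22 to 0.72, edgeR adjusted p = 0.00372). MDA-MB-231 gave 12.3, 13.1, 11.4 and 10.7 CPM with sgYES1, against 13.6, 13.2, 13.1 and 14.3 CPM with sgNTS. These groups were separated by a margin smaller than the rounding shown, and the log2 fold change of -0.20 (95% interval -0.37 to -0.03) did not pass (edgeR adjusted p = 0.0552). Without sgYES1 replicate 2 it was -0.25 and passed (adjusted p = 0.0285). The effects differed between lines by 0.66 (SUM159PT minus MDA-MB-231, SE 0.15, 95% interval 0.36 to 0.96, edgeR adjusted p = 0.00152), with 1429 of 16640 genes at a smaller p.

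ABCC1, ABCC4 and ABCC10 did not pass the test in either line. ABCC1, the glutathione-conjugate exporter MRP1, averaged 134 ± 7.17 CPM with sgYES1 and 130 ± 6.75 CPM with sgNTS in MDA-MB-231, and 102 ± 4.30 against 96.6 ± 3.33 CPM in SUM159PT (SD, n = 4 each). Its log2 fold changes had 95% intervals of -0.07 to 0.14 in MDA-MB-231 and -0.02 to 0.18 in SUM159PT (edgeR adjusted p = 0.570 and 0.195). These intervals bound the ABCC1 change to a small fold without showing that it was 0. ABCC4, an exporter of cyclic nucleotides and prostaglandins, averaged 40.3 ± 3.00 CPM with sgYES1 and 44.5 ± 2.36 CPM with sgNTS in MDA-MB-231, and 36.0 ± 1.71 against 37.3 ± 2.25 CPM in SUM159PT. Its log2 fold change in MDA-MB-231 was -0.15 (95% interval -0.27 to -0.02, edgeR adjusted p = 0.0648), and it passed at -0.19 without sgNTS replicate 1 (adjusted p = 0.0223) and at -0.18 without sgYES1 replicate 3 (adjusted p = 0.0352). ABCC4 in SUM159PT had a log2 fold change of -0.04 (edgeR adjusted p = 0.623).

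ABCC10, a taxane exporter also called MRP7, averaged 43.1 ± 2.58 CPM with sgYES1 and 39.9 ± 2.31 CPM with sgNTS in MDA-MB-231, and 45.5 ± 3.49 against 44.7 ± 2.35 CPM in SUM159PT (SD, n = 4 each). Its log2 fold changes were 0.10 (95% interval -0.02 to 0.23, edgeR adjusted p = 0.170) and 0.03 (edgeR adjusted p = 0.717). The differences between lines of ABCC1, ABCC4 and ABCC10 were 0.03, 0.09 and -0.08 (edgeR adjusted p = 0.794, 0.489 and 0.551). Of the taxane exporters, then, ABCC2 passed in both lines, ABCC10 in neither, and ABCB1 could not be tested.

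**Figure D2:**
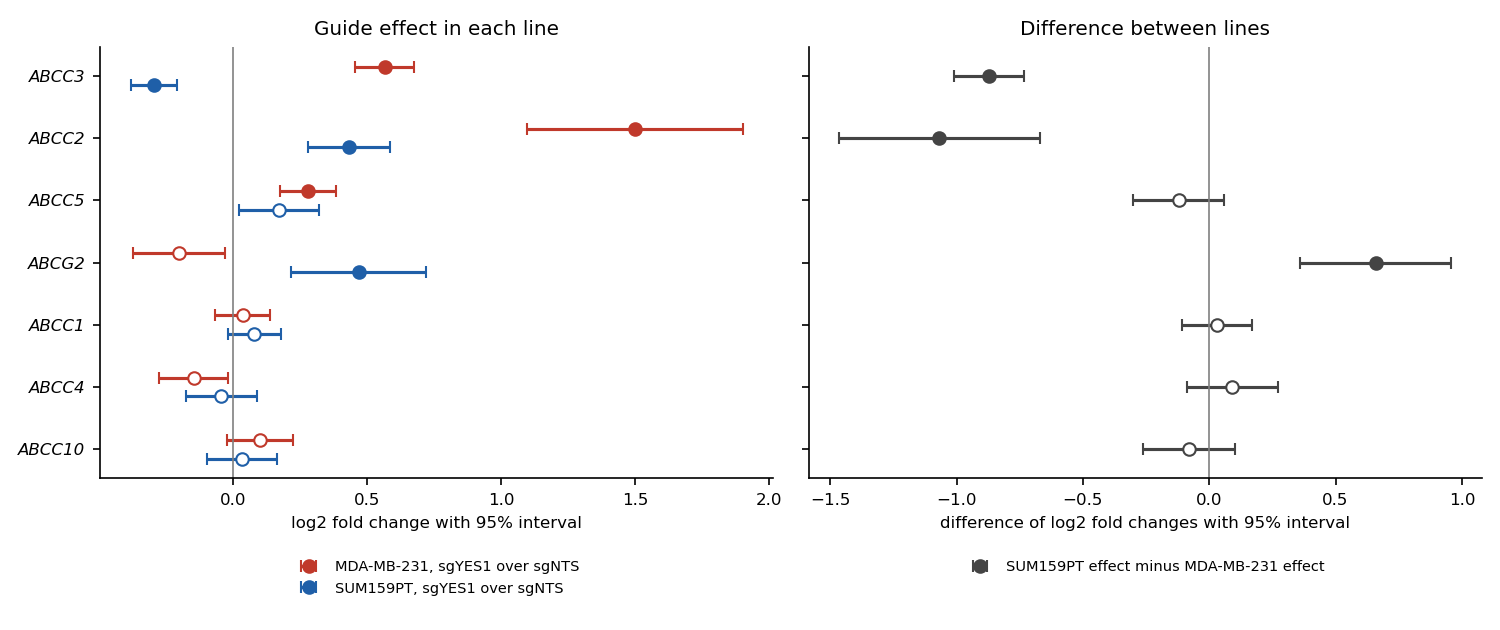
Log2 fold changes of the 7 exporters tested (left, sgYES1 over sgNTS in each line) and the SUM159PT effect minus the MDA-MB-231 effect (right), with 95% intervals; filled points passed edgeR's test at adjusted p under 0.05 and open points did not. ABCC3 lies at 0.57 (MDA-MB-231) and -0.29 (SUM159PT), and differences passed for ABCC2, ABCC3 and ABCG2.

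Libraries of a group were not equally placed for all exporters. In MDA-MB-231, sgYES1 replicate 4 was the lowest of its 4 libraries for 6 of 7 exporters, and sgYES1 replicate 3 was the highest for 4. Within a group the coefficient of variation of an exporter's CPM ran from 2.15% to 21.9% over the 28 combinations of exporter and group.

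To set the exporters against each other, CPM were divided by the deposited gene length, giving CPM per 1000 bases. This length exceeds that of the longest protein-coding transcript unevenly. It was 11441 against 5921 bases for ABCC5, 9614 against 5716 for ABCC3 and 7575 against 6594 for ABCC1. The order below therefore holds for the deposited lengths only, and transcript lengths could change it, also for ABCC1 and ABCC3. In MDA-MB-231, ABCC1 had the highest level, at 17.7 with sgYES1 and 17.2 with sgNTS, followed by ABCC3 at 13.2 with sgYES1 and 8.89 with sgNTS. In SUM159PT the order of this pair was the other way round, with ABCC3 at 19.6 with sgYES1 and 24.2 with sgNTS and ABCC1 at 13.4 with sgYES1 and 12.8 with sgNTS. Below them, ABCC10, ABCC4 and ABCC5 lay between 2.77 and 5.62 CPM per 1000 bases in all 4 groups. ABCG2 was the lowest of the 7 in SUM159PT, at 1.91 with sgYES1 and 1.40 with sgNTS, and the second lowest in MDA-MB-231, at 2.35 with sgYES1 and 2.68 with sgNTS. ABCC2 was the lowest in MDA-MB-231, at 0.745 with sgYES1 and 0.257 with sgNTS, and stood at 4.11 with sgYES1 and 3.06 with sgNTS in SUM159PT. ABCB1 came last in every group.

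Neighbours in this order were mostly separated: in 23 of 28 neighbouring pairs the ranges of the 4 libraries did not overlap. These ranges show the spread between libraries and not the uncertainty of the lengths, which were the same for every library. With sgYES1 in MDA-MB-231, ABCC10 overlapped ABCC5 and ABCC5 overlapped ABCC4, and with sgNTS ABCC4 overlapped ABCC10. In SUM159PT, ABCC4 and ABCC2 overlapped with sgYES1, and ABCC2 and ABCC5 overlapped with sgNTS. At the deposited lengths, the place of ABCC2 thus ran from last of the 7 in MDA-MB-231 to the fifth place in SUM159PT.

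Summed over the 8 exporters, the level was 48.9 ± 2.26 CPM per 1000 bases with sgYES1 and 43.2 ± 0.392 with sgNTS in MDA-MB-231, and 52.0 ± 1.28 against 54.0 ± 1.03 in SUM159PT (SD, n = 4 each). ABCC3 made up 27.0% of this sum with sgYES1 and 20.6% with sgNTS in MDA-MB-231, and 37.7% against 44.8% in SUM159PT. ABCC1 made up 36.1% with sgYES1 and 39.8% with sgNTS in MDA-MB-231, and 25.8% against 23.6% in SUM159PT. The ratio of ABCC3 to ABCC1 per length was 0.747 ± 0.0396 with sgYES1 and 0.520 ± 0.0636 with sgNTS in MDA-MB-231, and 1.46 ± 0.101 against 1.90 ± 0.0715 in SUM159PT. The mixture of exporter mRNA therefore carried more ABCC3 per ABCC1 with sgYES1 in MDA-MB-231 and less in SUM159PT. The sizes of these sums, shares and ratios also rest on the deposited lengths.

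**Figure D3:**
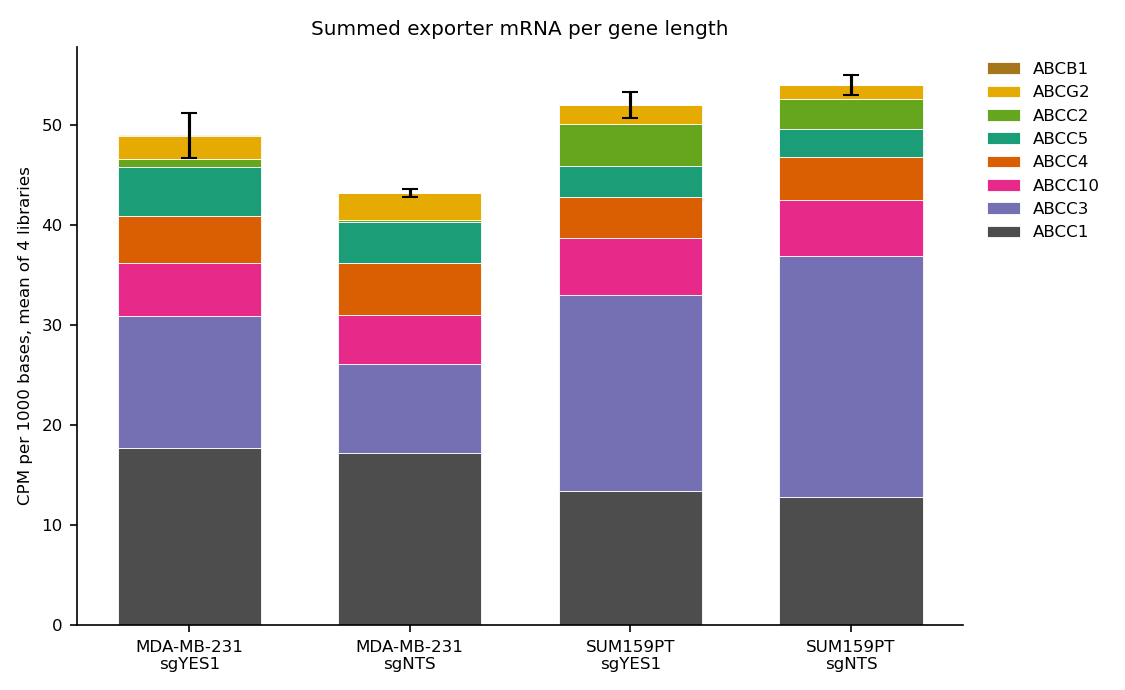
Stacked mean levels of the 8 exporters per deposited gene length in the 4 groups, in CPM per 1000 bases, with the SD of the summed level as a bar (n = 4). ABCC1 is the largest layer in MDA-MB-231 and ABCC3 in SUM159PT, and ABCB1 is too low to see.

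The lines themselves differed in all 7 exporters tested, in a comparison of SUM159PT with MDA-MB-231 under sgNTS. It shares its sgNTS libraries with the comparisons of guides, and line and culture medium cannot be told apart in it. All 7 members passed, 3 higher and 4 lower in SUM159PT, where 82.7% of 15567 genes tested passed (40.4% higher, 42.3% lower). Libraries of the lines did not overlap for any of the 7, nor for 77.6% of all genes tested, so these counts say little about the exporters as a group. ABCC2 stood furthest apart, at 24.0 ± 1.54 CPM in SUM159PT and 2.01 ± 0.440 CPM in MDA-MB-231 (SD, n = 4 each), an 11.6-fold higher level (log2 fold change 3.54, SE 0.12, edgeR adjusted p = 7.94e-13). ABCC3 was 2.69-fold higher in SUM159PT (log2 fold change 1.43, SE 0.05, edgeR adjusted p = 8.52e-13). A call of at least 2-fold higher was given to 16.9% of all genes in this comparison.

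Among the exporters lower in SUM159PT, ABCG2 was 1.95-fold lower (log2 fold change -0.96, edgeR adjusted p = 5.34e-08) at 7.04 ± 0.347 CPM in SUM159PT and 13.5 ± 0.557 CPM in MDA-MB-231. ABCC5 was 1.49-fold lower in SUM159PT (log2 fold change -0.58, edgeR adjusted p = 2.12e-07) and ABCC1 1.36-fold lower (-0.45, edgeR adjusted p = 2.9e-07). ABCC4 was lower by a log2 fold change of -0.27 (edgeR adjusted p = 0.000615). ABCC10 was higher in SUM159PT by 0.14 (edgeR adjusted p = 0.0318), a call that was lost without MDA-MB-231 sgNTS replicate 2 (adjusted p = 0.126) or without SUM159PT sgNTS replicate 2 (adjusted p = 0.081). Without MDA-MB-231 sgNTS replicate 4, the log2 fold changes were 3.46 (ABCC2), 1.40 (ABCC3), 0.14 (ABCC10), -0.24 (ABCC4), -0.40 (ABCC1), -0.60 (ABCC5) and -0.92 (ABCG2), all still called. The median log2 fold change of the 7 members was -0.27, beside -0.02 over all genes tested.

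The other 40 genes of the ABC family were counted as a background. They include ABCE1, ABCF1, ABCF2 and ABCF3, which are not membrane transporters. In MDA-MB-231, 7 of the 25 tested rose and 3 fell, with a median log2 fold change of 0.13, beside 20.8% called higher and 22.1% called lower over all genes tested. ABCA1, the cholesterol exporter, rose to 65.2 CPM with sgYES1, against 30.3 CPM with sgNTS (log2 fold change 1.10, edgeR adjusted p = 2.13e-06). ABCB10, a transporter of the mitochondrial inner membrane, fell to 30.7 CPM with sgYES1, against 49.6 CPM with sgNTS (log2 fold change -0.70, edgeR adjusted p = 1.82e-07). ABCA2 fell as well (log2 fold change -0.32, edgeR adjusted p = 4.69e-05). In SUM159PT, 10 of the 27 tested rose and 7 fell, with a median of 0.07, beside 19.6% and 19.7% over all genes. There TAP1, a subunit of the peptide transporter for antigen presentation, rose (log2 fold change 0.34, edgeR adjusted p = 2.05e-06), as did ABCF2 (0.39, edgeR adjusted p = 5.25e-07). ABCG1, a sterol exporter of the same subfamily as ABCG2, fell by 0.71 on the log2 scale (edgeR adjusted p = 8.21e-06), whereas ABCG2 rose in the same line.

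**Figure D4:**
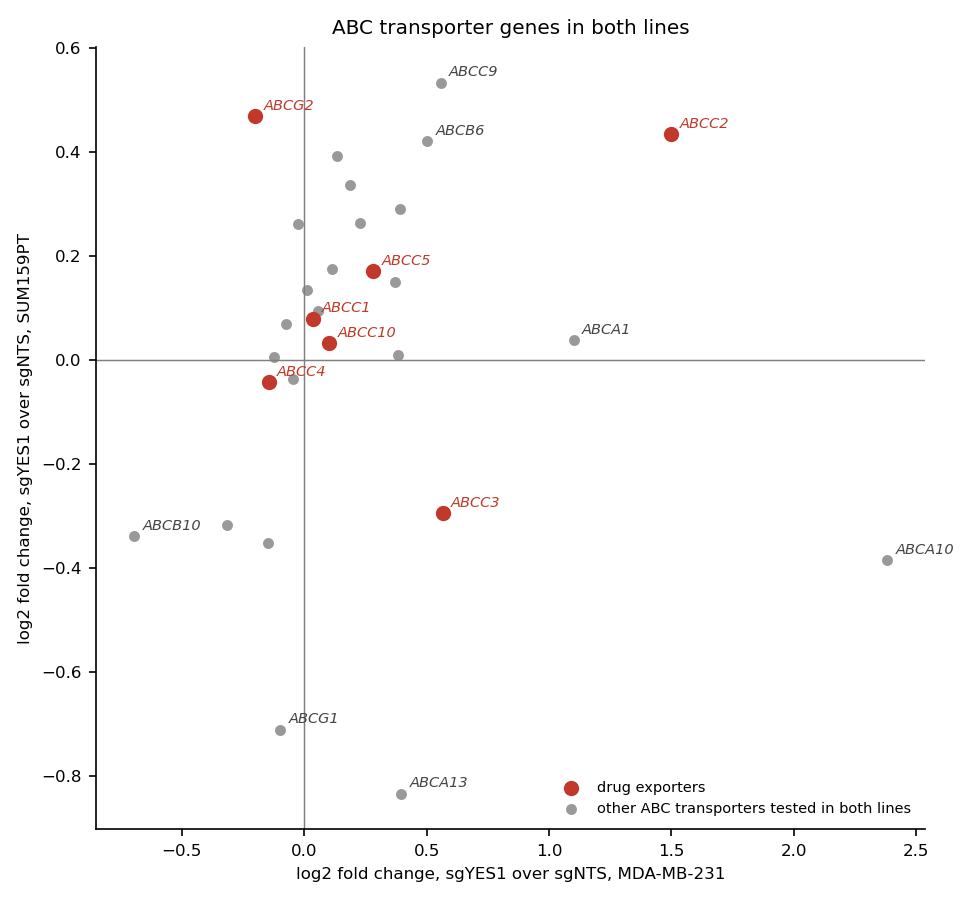
Log2 fold change of sgYES1 over sgNTS in MDA-MB-231 (horizontal axis) and SUM159PT (vertical axis) for 7 drug exporters (large red points) and the 22 other ABC family genes tested in both lines (small grey points, named where a change exceeds 0.5). The legend calls the grey points transporters, although not all of them are. ABCC2 lies at 1.50 and 0.43, ABCC3 at 0.57 and -0.29, and ABCG2 at -0.20 and 0.47.

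Genes that feed, place or control exporters were counted from lists chosen for this purpose. Of 9 genes for taxane uptake and metabolism, 4 were tested in MDA-MB-231, where 3 rose and none fell (20.8% and 22.1% over all genes), and 2 in SUM159PT, where 1 rose and none fell (19.6% and 19.7% over all genes). CYP1B1, a cytochrome P450 that oxidizes drugs, had 495 CPM with sgYES1 and 340 CPM with sgNTS in MDA-MB-231 (log2 fold change 0.54, edgeR adjusted p = 1.12e-06). POR, the electron donor of these enzymes, rose in both lines, by 0.25 in MDA-MB-231 and 0.27 in SUM159PT (edgeR adjusted p = 0.000496 and 4.21e-05). The other gene that rose in MDA-MB-231 was CYP3A5, below 1 CPM in both groups and named after its value was seen.

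Genes of glutathione and glucuronide conjugation, which make substrates of ABCC1, ABCC2 and ABCC3, were split. In MDA-MB-231, 7 of 22 tested rose and 7 fell (median log2 fold change -0.04, beside 20.8% and 22.1% over all genes), and in SUM159PT 3 of 20 rose and 7 fell (median -0.05, beside 19.6% and 19.7%). In MDA-MB-231, GCLC, a subunit of the enzyme that starts glutathione synthesis, rose by 0.41 (edgeR adjusted p = 1.32e-05), whereas GSS, which completes it, fell by 0.30 on the log2 scale (edgeR adjusted p = 3.78e-05). MGST1, a membrane glutathione transferase, rose by 0.53 (edgeR adjusted p = 4.80e-07). In SUM159PT, SLC7A11, the cystine importer, fell to 108 CPM with sgYES1, against 194 CPM with sgNTS (log2 fold change -0.84, edgeR adjusted p = 3.90e-08), whereas in MDA-MB-231 it rose to 202 CPM with sgYES1, against 135 CPM with sgNTS (log2 fold change 0.58, edgeR adjusted p = 0.000189). UGT2B7 and GSTP1 also fell in SUM159PT (-0.60 and -0.19, edgeR adjusted p = 0.000124 and 0.00112), the first of them uncertain because it has close paralogs.

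A list of direct or indirect transcriptional regulators of exporters in various tissues held 30 genes. In MDA-MB-231, 27 were tested, of which 9 rose and 4 fell (20.8% and 22.1% over all genes). In SUM159PT, 26 were tested, of which 5 rose and 10 fell (19.6% and 19.7% over all genes). The median log2 fold changes were 0.00 and -0.10. EPAS1, a hypoxia-inducible factor, rose by 0.65 in MDA-MB-231 (edgeR adjusted p = 1.10e-06), AHR, the dioxin receptor, rose by 0.39 (edgeR adjusted p = 2.86e-05) and PPARG fell by 0.44 on the log2 scale (edgeR adjusted p = 2.79e-05). In SUM159PT, KEAP1, which holds NRF2 in check, rose by 0.41, MAFG, a partner of NRF2, rose by 0.38, and FOXO1 fell by 0.51 on the log2 scale (edgeR adjusted p = 4.89e-06, 7.26e-06 and 1.69e-08). AHR fell there by 0.31 on the log2 scale (edgeR adjusted p = 0.000155), opposite to its rise in MDA-MB-231.

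The list of genes that anchor exporters at the membrane or regulate them in other ways had 16 members. In MDA-MB-231, 2 of 16 tested rose and 10 fell (median log2 fold change -0.18, beside 20.8% and 22.1% over all genes), and in SUM159PT 3 of 15 rose and 4 fell (median -0.07, beside 19.6% and 19.7%). CAV1, the caveola protein known to associate with ABCB1, fell to 389 CPM with sgYES1, against 736 CPM with sgNTS, in MDA-MB-231 (log2 fold change -0.92, edgeR adjusted p = 5.04e-10). It also fell in SUM159PT, to 145 CPM with sgYES1, against 218 CPM with sgNTS (log2 fold change -0.57, edgeR adjusted p = 5.52e-09). MSN, a linker of membrane proteins to actin, and the kinase PIM1, which phosphorylates ABCG2, fell in MDA-MB-231 by 0.22 and 0.41 on the log2 scale (edgeR adjusted p = 0.000157 and 6.86e-05). In SUM159PT, MSN rose by 0.19 (edgeR adjusted p = 0.000240). PRKCA and the scaffold SLC9A3R1 fell in SUM159PT by 0.27 and 0.34 on the log2 scale (edgeR adjusted p = 3.04e-05 and 0.000130).

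For 6 exporters with at least 5 CPM in each line, the genes most like them across the 16 libraries were found by Pearson's r of log2 CPM after each line's mean was taken off, among 9514 protein-coding genes. These r describe shared libraries and the shared guide contrast, and no p is given. ABCC3 was closest to TFAP2A and SAT1 (r = 0.96 for both). ABCC5 was closest to ALG3 (r = 0.93), which lies on the same chromosome at chr3:184242301-184249548, and to PTBP2 (r = 0.92). ABCG2 was closest to EXT1 and SH3RF1 (r = 0.90 for both), and ABCC10 to EPS15L1 (r = 0.93) and THAP8 (r = 0.81). ABCC1 was closest to HCFC1 (r = 0.85) and ADCY9 (r = 0.82), and ABCC4 to TTC5 (r = 0.84) and TNPO3 (r = 0.83). Among the exporters themselves, ABCC2 went with ABCC5 (r = 0.81) and ABCC3 (r = 0.70), while ABCC3 and ABCG2 ran against each other (r = -0.64).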

How the data were processed

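Gene expression was measured by RNA-seq of poly-A RNA in 16 samples, grouped by cell line and guide from the labels (4 per group). The authors deposited raw counts per gene, 1 table per line. The submitters' processing notes name HISAT2 2.0.5, featureCounts 1.5.0-p3 and the build hg38. The protocol names both directional and non-directional libraries, so strand use and the handling of multiply mapped reads are not given in the sources used here.

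Counts were TMM-scaled, kept by filterByExpr (minimum count 10, total 15) and tested with edgeR 4.0.16 (quasi-likelihood F-test, R 4.3.3), two-sided, Benjamini-Hochberg over all genes, called under 0.05. Guides were compared within the 8 libraries of a line, the difference between lines as an interaction over 16, and the lines' sgNTS libraries in a fit of their own. CPM were TMM-scaled over 16 libraries, with a prior count of 2 before logs. The SE is the log2 fold change over the root of F. No 2 libraries agreed within counting noise. Pairing of samples by replicate number was not shown. Alternatives were RLE scaling, library totals, no filter, DESeq2 1.42.0, a replicate block and leaving out each library.

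All 8 exporters are named. From each list, up to 3 called genes of at least 1 CPM with the smallest p in each line are named, and for each exporter the 2 genes with the highest r. Outside this rule, SLC7A11 in MDA-MB-231 and AHR and MSN in SUM159PT are given as calls opposite to those of the other line. No test of their difference between lines is given, and most other listed genes are given in 1 line only. The exporters and lists were chosen with earlier results of these data known.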

Additional observations from a re-analysis of the deposited data

Results flagged for a closer look

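The guide effect of 3 exporters differed between the lines by the interaction test of edgeR. SUM159PT minus MDA-MB-231, the log2 difference was -1.07 for ABCC2 (higher with sgYES1 in 4 of 4 libraries of both lines), -0.87 for ABCC3 (higher in all 4 sgYES1 libraries of MDA-MB-231 and lower in all 4 of SUM159PT) and 0.66 for ABCG2 (lower in all 4 sgYES1 libraries of MDA-MB-231, narrowly, and higher in all 4 of SUM159PT). In 1 of 28 combinations of exporter and group, a library lay far from the others of its group: ABCC5 had 34.4 CPM in SUM159PT sgNTS replicate 2, a gap to the nearest library of 0.846 of the group's range. Chance marks about 1 in 20 such groups.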

How the results depend on the processing

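With a replicate block, genes called were 5901 in MDA-MB-231 (6607 without it), 5886 in SUM159PT (5701), 3817 for the difference between lines (4085) and 12753 between control lines (12878), and exporters called were 3, 4, 3 and 7. The added exporter was ABCC5 in SUM159PT (0.17, adjusted p = 0.0421). Same-numbered libraries correlated at -0.08 to 0.03, and 2, 4 and 3 of 8 libraries correlated best with their own number. Pairing by number was thus not shown, and this check could not exclude it.

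With no filter, 5 exporters passed in MDA-MB-231, adding ABCC4 (-0.17, adjusted p = 0.0168) and ABCG2 (-0.23, adjusted p = 0.0468). ABCC5 in SUM159PT passed with library totals only (0.20, adjusted p = 0.0347). With library totals, 59.6% of genes called in MDA-MB-231 were higher, against 48.5% with TMM. ABCC10 between control lines failed with no filter (adjusted p = 0.204) and with DESeq2 (adjusted p = 0.0504). ABCC3 per length in SUM159PT sgNTS was 23.6 with library totals, against 24.2.

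Leaving out each library in turn, genes called ranged over 5777 to 6582, 4880 to 5638, 3643 to 4365 and 12706 to 12974, and exporters called over 3 to 4, 3 to 4, 3 to 3 and 6 to 7. The ABCC10 difference between lines ranged from -0.11 to 0.0038, changing sign without SUM159PT sgYES1 replicate 1 (adjusted p = 1.00). The cause of these shifts was not tested. ABCC2 and ABCC3 passed in both lines, ABCC5 in MDA-MB-231 and ABCG2 in SUM159PT under every alternative run, with the same direction. Depth limits ABCB1, and ABCC2 in MDA-MB-231 sgNTS rests on 30 to 64 counts a library.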
